A study of Triticum polonicum with 10 samples.

Results

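Roots of dwarf Polish wheat given 200 µM of an iron salt were compared with roots given 50 µM of the same salt, without cadmium. The comparison takes 4 of the 10 libraries of the series by the code that heads their columns. They are A50CK and A200CK, from plants fed FeCl3 at 50 and 200 µM, and B50CK and B200CK, from plants fed Fe2(SO4)3 at 50 and 200 µM. Dwarf Polish wheat (Triticum polonicum) is a tetraploid wheat with an A and a B subgenome. All plants were 4-week-old seedlings treated for 1 week, and no transgene or mutant is named. No count of plants per library is given beyond the 3 biological replicates per treatment of the design text, and each treatment has 1 library. Each dose thus had 2 libraries, 1 per salt, and nothing in the labels says that any pair are separate cultures of 1 treatment, so p-values measure only the spread between these libraries.

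The dose of the sulfate salt rests on the column code, because codes and treatment texts disagree. The library coded B50CK carries a text that names the 200 µM sulfate salt with 80 µM CdCl2, whereas the text that names 50 µM of this salt without cadmium belongs to the library coded B50Cd. Code and text match for A50CK, A200CK and B200CK. In 113 genes that were at least 4-fold higher with cadmium in each of the 3 pairs without a salt or with FeCl3, the median level was 2.47 to 2.59 CPM (counts scaled to the library total) without cadmium and 30.1 to 35.5 CPM with it in those 6 libraries. In libraries not used for that choice, the same genes had a median of 4.5 CPM in B50CK, 2.95 CPM in B200CK, 31.2 CPM in B50Cd and 27.6 CPM in B200Cd. B50CK thus lay near the libraries without cadmium and B50Cd near those with it. In 29 genes lowered by cadmium in the same way, the median was 21.9 to 38.1 CPM without cadmium and 2.07 to 3.01 CPM with it in the 6 libraries of the choice. It was 28.0 CPM in B50CK, 4.25 CPM in B200CK, 1.23 CPM in B50Cd and 1.81 CPM in B200Cd. By these genes B200CK, whose code and text both say no cadmium, lay near the libraries with cadmium. No library was moved on these values, and the main counts under the treatment text are given beside the results.

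Iron is both a nutrient and a hazard for a root. Grasses take it up mainly by secreting phytosiderophores, chelators built from nicotianamine, and by importing the iron they bind, and the genes of this route are raised when iron is short and lowered when it is ample. Surplus iron is held in ferritin and in vacuoles, since free iron drives the formation of reactive oxygen. The deposited IDs are not paired with gene names in the sources used here, so none of these genes, and no marker of root cells, could be looked up. Genes are described by ID, by subgenome and by chromosome, which the bread wheat IDs carry, and by ID class. The LC suffix marks low-confidence gene models of that annotation, and IDs of the form Novel05078 stand outside it.

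Total counts were 18184796 in A50CK, 13997374 in B50CK, 14665421 in A200CK and 16935968 in B200CK, and 3 counts in 1 library, taken as the limit that a count of 0 allows, corresponded to 0.165 to 0.214 CPM. By its formula Fe2(SO4)3 carries 2 iron atoms, so the iron supplied was 50 µM in A50CK, 100 µM in B50CK, 200 µM in A200CK and 400 µM in B200CK. A higher dose raised iron and its anion together, and their parts cannot be told apart. The distance between a pair of libraries was the SD, over 25616 genes, of their log2 ratio. The libraries of the same dose lay at 0.634 (50 µM) and 0.704 (200 µM), and those of the same salt at 0.764 (FeCl3) and 0.866 (sulfate). With cadmium the order was the other way, at 0.481 between doses in both salts and 0.684 and 0.618 between salts. The control without an iron salt lay at 1.02 to 1.36 from the others, and it enters no test. Some pairs without the control fell in that range, such as B200CK and the library with cadmium alone at 1.1.

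A small set of transcripts was much lower at the higher dose. At an adjusted p under 0.05 (edgeR quasi-likelihood test with salt as block, Benjamini-Hochberg adjustment), 23 genes were lower and 1 was higher at 200 µM among 52258 tested, that is 0.044% and 0.00191% of genes. Log2 folds of the 23 genes ran from -6.28 to -3.09, with a median of -3.90. Their median level was 15.1 CPM in A50CK and 18.1 CPM in B50CK, and 0.818 CPM in A200CK and 1.06 CPM in B200CK. Both libraries at 200 µM lay below both at 50 µM in all 23, which the test's selection favours. Of the 23, 14 carry IDs of subgenome B, 8 of subgenome A and 1 is of the Novel05078 form, and 3 have the LC suffix. For comparison, 25774 genes had a mean over the 4 libraries that reached 5 CPM. Of these, 11719 were A genes, 12058 B genes and 1380 of the Novel05078 form, and 2261 had the LC suffix. That set is smaller than the 52258 genes tested, and 3 of the 23 had a lower mean.

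These calls lie close to the threshold and depend on how the spread is estimated. The smallest adjusted p was 0.0379, and only 1 residual degree of freedom was left by this design. No gene passed when DESeq2's size factors replaced TMM scaling in edgeR, when the salt block was dropped, or when B50CK was left out, and none passed under the treatment text. DESeq2 called 597 genes, 23 of the 24 among them. At an unadjusted p under 0.05 in edgeR, 7697 genes (14.7%) were found, of which 4294 were lower and 3403 higher. Under the treatment text there were 2138.

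In the first of the genes named by fold among those past the threshold, TraesCS2A01G675100LC, the level was 11.5 CPM in A50CK and 11.8 CPM in B50CK. It had 0 counts in A200CK and 5 counts, or 0.295 CPM, in B200CK. The dose effect was a log2 fold of -6.28 ± 0.77 (SE, 2 libraries per dose, edgeR adjusted p = 0.0499). The size of the fold rests on few counts at 200 µM, being -10.55 without B200CK and -5.19 without A200CK. The gene also had 0 counts in the control, so the low levels at 200 µM were near the level without an iron salt. With cadmium its level was 4.92 CPM without a salt and 10.3 CPM in A200Cd, against 0.587 to 0.631 CPM in the other 3 libraries with cadmium.

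TraesCS6A01G303400 showed a similar pattern. Its level was 12.9 CPM in A50CK and 18.15 CPM in B50CK, then 0 counts in A200CK and 0.472 CPM in B200CK. The log2 fold was -6.14 ± 0.74 (SE, edgeR adjusted p = 0.0445). It was -10.96 without B200CK, -4.93 without A200CK and -4.62 under the treatment text. This is the called gene that DESeq2 did not call (adjusted p = 0.0554). The control again had 0 counts, while the library with cadmium and no salt had 14.75 CPM. With cadmium the doses stood the other way round, at 6.59 CPM in A50Cd and 25.04 CPM in A200Cd, and 2.29 CPM in B50Cd and 14.25 CPM in B200Cd. That difference, a log2 fold of 2.17 ± 0.31, had an unadjusted p of 0.00025 and did not pass in edgeR (adjusted p = 0.528).

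Both of these genes were exceptions among the 23 in the control. In the other 21, the control without an iron salt lay above both libraries at 200 µM, and over all 23 its median was 28.0 CPM. Low levels at 200 µM in these 21 were therefore low against no added iron as well as against 50 µM.

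Novel05078 was the gene called higher. It had 1.38 CPM in A50CK, 4.72 CPM in B50CK, 17.9 CPM in A200CK and 41.6 CPM in B200CK, so its level rose with each step in the iron supplied. The log2 fold was 3.34 ± 0.36 (SE, edgeR adjusted p = 0.0379). The control had 2 counts, or 0.147 CPM. The higher gene with the next smallest p among those that met the naming rule, TraesCS4B01G243300LC, had 3.41, 5.50, 18.6 and 37.0 CPM in the same order. Its log2 fold of 2.53 ± 0.36 did not pass (edgeR adjusted p = 0.0685). The log2 fold of TraesCS4B01G243300LC was 1.08 under the treatment text. Both genes were chosen to have no overlap between doses. The fold of Novel05078 was 2.45 without B200CK, where it did not pass (edgeR adjusted p = 0.0636).

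**Figure D1:**
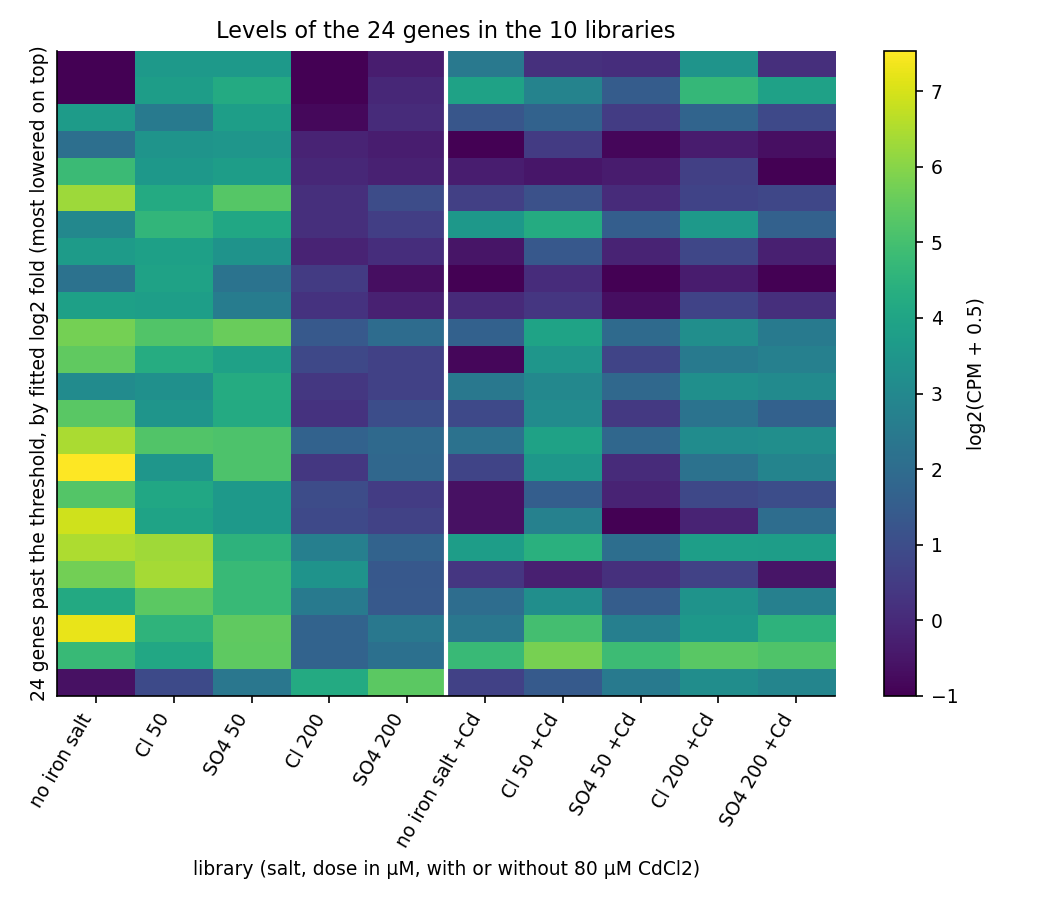
Level of each of the 24 genes past the threshold (rows, ordered by log2 fold) in the 10 libraries by column code (columns, those coded without cadmium left of the line), with colour giving log2(CPM + 0.5). In the 23 upper rows the 200 µM libraries without cadmium are darker than the 50 µM ones, with medians of 0.818 and 1.06 CPM against 15.1 and 18.1 CPM, and the bottom row is Novel05078.

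A wider set was described without a test, by the ratio of 200 to 50 µM within each salt. Log2 ratios of CPM + 0.5 were taken in 25774 genes whose mean over the 4 libraries reached 5 CPM. Genes at least 2-fold lower in both salts numbered 698 (2.71%) and those at least 2-fold higher in both 759 (2.94%). A further 127 (0.493%) were 2-fold apart in opposite directions. At 4-fold, 71 were lower and 16 higher in both salts, so most differences of that size were on the lower side. Across these genes, which are not independent replicates, the ratio in FeCl3 and the ratio in sulfate had a Pearson r of 0.405 and a Spearman rho of 0.416, and 62.1% had the same sign. The 2 pairs share no library. With the sulfate pair of the treatment text r was -0.054, and 185 genes were lower and 197 higher in both.

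**Figure D2:**
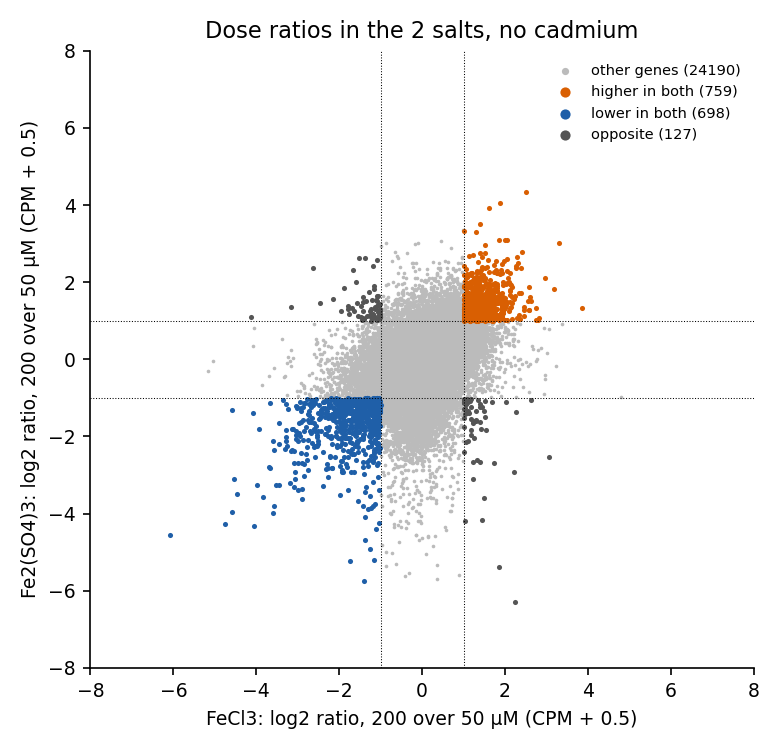
Log2 ratio of 200 to 50 µM, of CPM + 0.5, in FeCl3 on the x axis and in Fe2(SO4)3 on the y axis, 1 point for each of 25774 genes, with dotted lines at 2-fold. The coloured genes are the 698 lower and the 759 higher in both salts, and the 127 dark points have opposite directions.

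Counted by separation alone, 5198 genes (20.2%) had both libraries at 200 µM below both at 50 µM, and 6841 (26.5%) had both above. With 2 libraries per dose, a sizeable part of all genes separates in this way without any dose effect. These counts thus do not by themselves show a dose effect. By the treatment text, 2386 of 25495 genes were below and 4925 above. The direction within single pairs depends on the scaling. In FeCl3, 2268 genes were 2-fold or more higher and 1999 lower by library totals, but 1275 higher and 2793 lower with TMM scaling. In sulfate there were 2125 higher and 3369 lower by totals, and 2711 higher and 2669 lower with TMM. The median ratio over all genes moved from 0.14 to -0.061 in FeCl3 and from -0.072 to 0.064 in sulfate. Counts of genes 2-fold apart in both salts moved less, to 614 higher and 698 lower.

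The 698 lower genes were well expressed at 50 µM, with medians of 23.3 CPM in A50CK and 25.9 CPM in B50CK, and of 6.89 CPM in A200CK and 7.91 CPM in B200CK at 200 µM. Without an iron salt their median was 25.5 CPM, close to the level at 50 µM. The 759 higher genes had medians of 6.49 and 7.22 CPM at 50 µM and 18.5 and 21.3 CPM at 200 µM, and 5.43 CPM without a salt. For both lists the level without a salt was thus on the side of 50 µM, which the choice of the lists did not use. The median over all 25774 genes was 13.9 to 15.3 CPM in these 5 libraries. Lower genes made up 4.32% of the 2177 genes with a mean of 50 to 100 CPM, and 2.32% to 2.70% in the other ranges of abundance. Higher genes made up 2.43% to 3.40% in the 5 ranges, with no steady order by abundance.

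**Figure D3:**
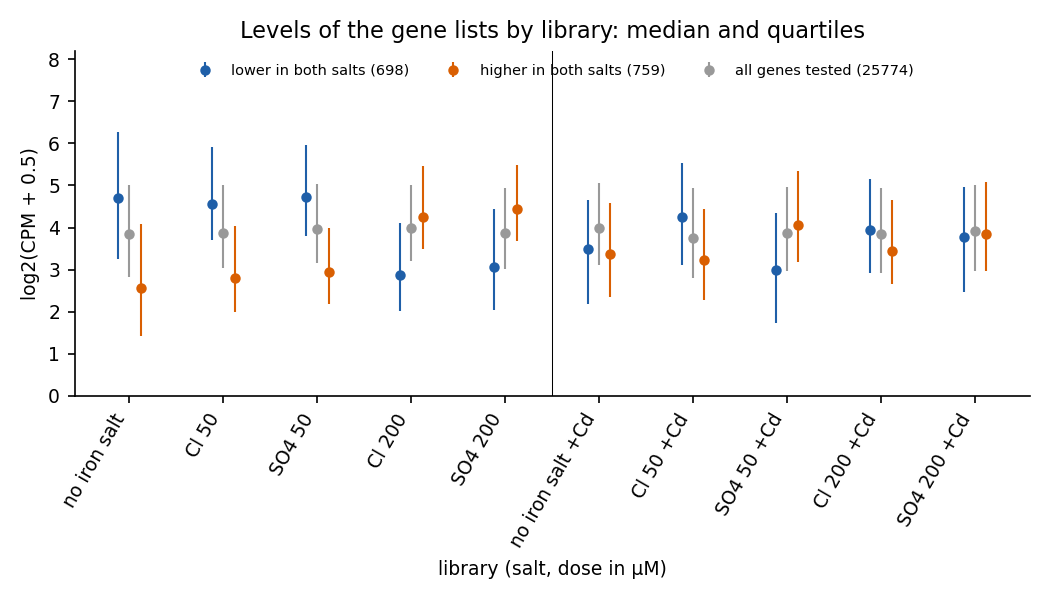
Level as log2(CPM + 0.5) of the genes lower and higher at 200 µM in both salts and of all genes, in each of the 10 libraries by column code. Points are medians and lines run from the lower to the upper quartile, and the lower genes have a median of 25.5 CPM without a salt and of 6.89 and 7.91 CPM at 200 µM without cadmium.

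Within the lists, the order of the libraries was also compared with the iron supplied, which runs from A50CK through B50CK and A200CK to B200CK. Of the 759 higher genes, 360 (47.4%) were higher at every step, and of the 698 lower genes, 166 (23.8%) were lower at every step. Of all genes without overlap, 30.1% of the 6841 higher and 26.8% of the 5198 lower followed the iron supplied at each step. In such genes only the order within each dose is left free, so a part of them follows every step whatever the iron supplied. The 23.8% of the lower list was below the 26.8%, and the 47.4% of the higher list was above the 30.1%. Salt form and iron content change together along this order and cannot be told apart.

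Many genes of these lists stood on the same side in plants given cadmium without iron. The control and the library with 80 µM CdCl2 and no salt are not among the 4 libraries that define the lists, and this comparison was chosen after the values were seen. Of the 698 genes lower at the higher iron dose, 410 (58.7%) were at least 2-fold lower with cadmium, against 12.1% of all genes, and 68 (9.74%) were higher. Of the 759 genes higher at the higher dose, 315 (41.5%) were at least 2-fold higher with cadmium, against 18.4% of all, and 64 (8.43%) were lower. Read the other way, the 410 genes were 13.1% of the 3122 genes lower with cadmium, and the 315 were 6.65% of the 4739 genes higher. Each side of this pair is 1 library, so it has no replicate check, and the control is the library farthest from the rest. B200CK, which helps define the lists, lay near the libraries with cadmium in the 29 genes lowered by cadmium (4.25 CPM, against 22.4 CPM in A200CK). In the 113 genes raised by cadmium it did not (2.95 CPM, against 2.59 CPM in A200CK). What part the control's distance or the state of B200CK has in these shares was not tested.

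**Figure D4:**
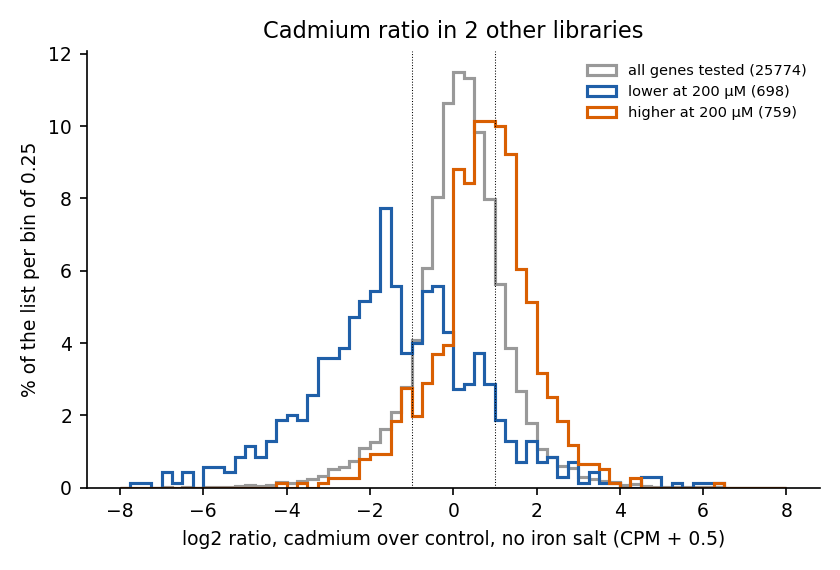
Distribution over genes of the log2 ratio of cadmium to control, both without an iron salt, for all genes and for the genes lower or higher at 200 µM iron salt, as the percent of each list per bin, with dotted lines at 2-fold. Among the genes lower at 200 µM, 58.7% lie below the lower line, against 12.1% of all genes.

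With cadmium present, many of the genes on the lower list stood higher with FeCl3 than without a salt, which did not hold for both sulfate libraries. The list's median was 10.7 CPM with cadmium alone, 18.4 CPM in A50Cd and 15.0 CPM in A200Cd. In sulfate it was 7.49 CPM in B50Cd, below cadmium alone, and 13.3 CPM in B200Cd. Shares of genes were taken for FeCl3 only. Of the 698 lower genes, 307 (44.0%) had a level with cadmium and 50 µM FeCl3 that was 2-fold or more above that with cadmium alone, against 10.2% of all genes. At 200 µM FeCl3 the share was 34.2%, against 9.38% of all. Both pairs, and the pair of cadmium against the control, share the library with cadmium alone, so these shares are not independent of each other. Of the 759 higher genes, 9.62% were higher to that extent at 50 µM FeCl3, close to the share of all genes, and 15.0% at 200 µM, above it.

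Under cadmium few genes differed between doses in both salts. In libraries coded with cadmium, 39 genes (0.16% of 24418) were at least 2-fold lower and 41 (0.168%) higher at 200 µM in both salts. The SD of the dose ratio over the 25774 genes was 0.471 and 0.472 with cadmium, against 0.765 in FeCl3 and 0.872 in sulfate without it. No gene of 50811 passed in edgeR (smallest adjusted p = 0.175), 1444 (2.84%) had an unadjusted p under 0.05, and DESeq2 called 39. The difference of the dose effect between cadmium states, tested as an interaction over 8 libraries, passed in 0 of 56571 genes in edgeR (smallest adjusted p = 0.53), with 5102 (9.02%) at an unadjusted p under 0.05 (1197 under the treatment text) and 158 called by DESeq2. A smaller dose effect with cadmium was therefore not established for any 1 gene by edgeR with its filter on low counts. Without that filter edgeR called 1217 genes for the interaction.

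The lists also behaved unequally in the 2 salts with cadmium. Among the 698 lower genes, 28.4% had 2-fold or more of their 50 µM level at 200 µM sulfate with cadmium, against 3.15% of all, and 0.86% were lower, against 1.44%. In FeCl3 with cadmium 4.30% of them were higher, against 2.60% of all, and 6.88% lower, against 1.38%. Among the 759 higher genes, 1.05% were higher and 5.67% lower with sulfate and cadmium, and 6.19% were higher and 0.922% lower with FeCl3 and cadmium. In FeCl3 both lists thus leaned the way they did without cadmium, and in sulfate the other way. These sulfate libraries are those whose codes and texts disagree. Of the 23 genes called lower, 20 were tested with cadmium. Their log2 folds there ran from -0.63 to 2.26 with a median of 0.20, and 3 were at least 2-fold higher and 0 lower.

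In all 4 pairs, 1 gene, TraesCS5B01G545500, was higher at 200 µM by 2-fold or more, with log2 ratios of 1.17 in FeCl3 and 1.53 in sulfate without cadmium and 1.06 and 1.49 with it. Its level was 2.42 CPM in A50CK, 4.86 CPM in B50CK, 6.07 CPM in A200CK and 14.9 CPM in B200CK, and it did not pass in edgeR (adjusted p = 0.177). It had 6.53 CPM in the control, which was above A50CK, B50CK and A200CK. Of the 25774 genes, none was lower in all 4 pairs, 8 were lower without and higher with cadmium, and 0 the reverse. How many such genes would arise if the dose ratios with and without cadmium were unrelated was not tested.

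Low-confidence IDs and IDs of the Novel05078 form held larger shares of genes at least 2-fold higher in both salts than the bulk of genes. Of 2261 LC genes, 8.31% were higher and 2.39% lower, and of 1380 genes of the Novel05078 form, 7.25% were higher and 1.01% lower, beside 2.94% and 2.71% of all genes. The share of a library's counts in LC IDs was 5.93% and 6.24% at 50 µM and 6.80% and 6.98% at 200 µM, and that in the latter IDs was 2.67% and 2.88% against 3.603% and 3.599%. Neither share overlapped between doses, but this was not particular to these IDs. Subgenome B held 46.75% and 46.79% of counts at 50 µM and 46.17% and 46.05% at 200 µM. For D IDs it was 1.219% and 1.224% against 1.249% and 1.253%. Among single genes, 20.2% lay below and 26.5% above without overlap. What part the count shares of LC IDs and IDs of the Novel05078 form have in the result was not tested.

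Genes of subgenome A were lower at 200 µM slightly more often than those of B, a difference with no test. Of the A genes 3.20% (375 of 11719) were lower, and of the B genes 2.45% (295 of 12058), with A above B in 7 of 7 chromosome groups. Among higher genes the shares were 2.66% and 2.70%, with A above in 3 of 7. Without LC IDs the shares of higher genes were 2.23% and 1.97%, with A above in 6 of 7. Those of lower genes were then 3.22% and 2.51%, with A above in 7 of 7. The contrast between directions thus depends on the LC IDs. The pattern was noticed after the values were seen. At 4-fold, where 30 A and 36 B genes were lower, A was above B in 3 of 7 groups, and under the treatment text in 4. Of the 23 called genes, more were of B (14) than of A (8). Reads of near-identical A and B copies may be split between them, so counts of single copies are uncertain. On chromosomes, the share of lower genes ran from 1.56% on 4B to 3.87% on 1A.

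**Figure D5:**
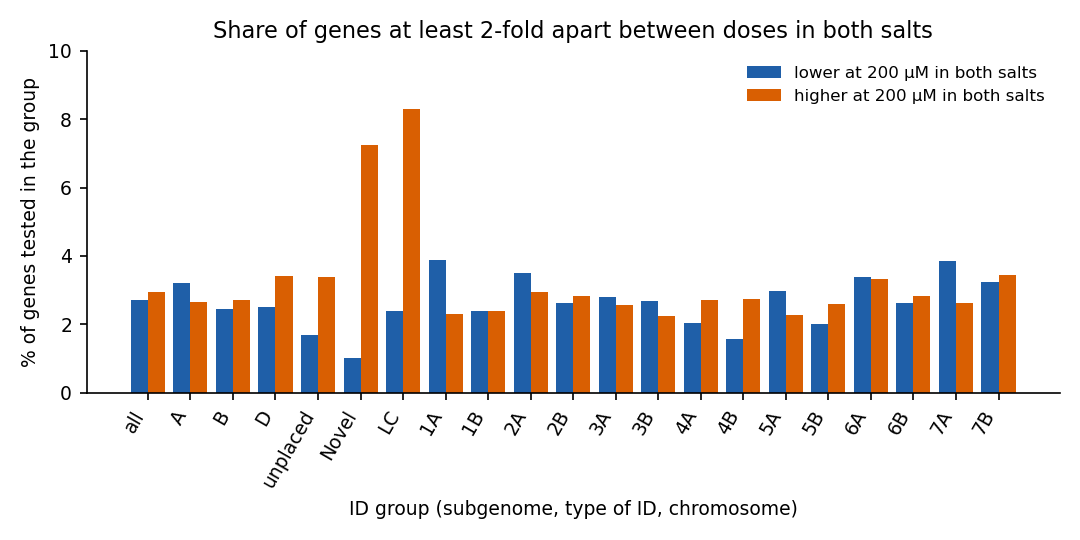
Percent of genes at least 2-fold lower or higher at 200 µM in both salts, by subgenome, ID class and chromosome. The D bars cover 440 bread wheat IDs of subgenome D, which is not a subgenome of this wheat. How reads came to these IDs was not tested. LC IDs and IDs of the Novel05078 form reach 8.31% and 7.25% higher, against 2.94% of all genes.

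Genes lower at 200 µM also lay near each other in the ID order, which follows the chromosome. Of 681 placed lower genes, 157 (23.1%) had another lower gene within 10 IDs, against 14.9% of all placed genes with a lower gene in that reach. For higher genes the shares were 12.9% and 11.3%. The longest run was on chromosome 2A, where 5 of the 7 consecutive IDs from TraesCS2A01G332200 to TraesCS2A01G332800 were on the list. Their median was 67.6 CPM in A50CK and 35.9 CPM in B50CK, and 20.1 CPM in A200CK and 8.68 CPM in B200CK. None of the 7 passed the threshold, and the run was chosen after its values were seen. The control had a median of 5.65 CPM in these 5 genes, below every library of the comparison, unlike the list as a whole. Counts are uncertain where neighbours are near-identical copies, which was not tested.

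In the 127 genes with opposite directions, 62 were higher with FeCl3 and lower with sulfate, and 65 the reverse. With TMM scaling these counts were 24 and 123, so its balance depends on the scaling. Under the treatment text they were 183 and 423. By library totals, IDs without a chromosome were more often among them, at 6 of 177 (3.39%) against 0.493% of all genes. Their share with TMM scaling was not computed. Levels of the 4 genes that lead this list are given in the closing section. No gene with at least 5 CPM in both libraries of 1 dose was at 3 counts or fewer in both of the other.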

How the data were processed

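Gene counts, deposited by the authors as whole numbers for 274924 IDs and 10 libraries, were used. The authors also deposited FPKM of the same genes, used only for the alternatives. The submitters' processing notes list Bowtie2 2.0.6 and TopHat2 2.0.12. Not given in the sources used here are the read counter, the build, the strand setting and the filters. Every row named a gene.

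Members, lists and tests were chosen with earlier results of these data known. Libraries were grouped by title code. Counts were tested with edgeR 4.0.16 (TMM, filterByExpr, quasi-likelihood, R 4.3.3) on salt plus dose, with Benjamini-Hochberg adjustment at 0.05, and the interaction with cadmium on 8 libraries. The standard error of a log2 fold is its size divided by the square root of F. CPM were computed from library totals, and ratios from log2(CPM + 0.5). Floors cover counting error only. Replicate number stands for the salt, so salt is the replicate block of the design. Scripts were tested on simulated data.

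At most 2 IDs per direction were named in each list, from genes whose mean reached 5 CPM. For both salts, these had no overlap between doses and at least 2-fold in each salt, ranked by fold past the threshold and then by p. Opposite genes were ranked by the smaller ratio, and genes of all 4 pairs by the smallest. Lists of iron and metal genes could not be matched to IDs. Alternatives were other scalings, filters, DESeq2 1.42.0, limma 3.58.1 on log2 FPKM, the treatment text, and each library left out.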

Additional observations from a re-analysis of the deposited data

Results flagged for a closer look

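Genes that went one way in FeCl3 and the other way in Fe2(SO4)3 were flagged because the salts' dose ratios have opposite signs. Each salt has 1 library per dose, so the difference between the salts was not tested. Values are log2 ratios of CPM + 0.5, 200 over 50 µM.

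TraesCSU01G336000LC, which has no chromosome, went from 7.75 CPM in A50CK to 68.9 CPM in A200CK and from 3.43 CPM in B50CK to 3 counts, or 0.177 CPM, in B200CK. Its ratios were 3.071 in FeCl3 and -2.537 in sulfate. The sulfate ratio rests on 3 counts and on the pseudocount, being -3.671 with 0.1 and -1.318 with 2, and the counts alone give an exact 95% interval of -6.60 to -2.64 that covers counting error only. TraesCSU01G036600, also unplaced, went from 7.97 to 39.4 CPM in FeCl3 (2.236) and from 127.5 to 1.12 CPM in sulfate (-6.302). The high level of this gene was in B50CK.

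TraesCSU01G052000LC, unplaced as well, went from 62.2 to 9.68 CPM in FeCl3 (-2.622) and from 3.14 to 18.3 CPM in sulfate (2.368). TraesCS4A01G202300 went from 66.1 to 17.46 CPM in FeCl3 (-1.891) and from 30.7 to 112.4 CPM in sulfate (1.854). With cadmium both of its ratios were negative, at -2.57 and -2.19.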

How the results depend on the processing

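The number of genes past the threshold without cadmium depended on most settings tried. Against 24, edgeR gave 0 with no salt term, with RLE size factors (as in DESeq2), with a filter of 1 CPM in 2 libraries, under the treatment text and with the spread taken from 8 libraries (8688 genes at an unadjusted p under 0.05), and 2608 with no filter on low counts. DESeq2 gave 597, and limma on log2(FPKM + 0.1) gave 0 and on log2(FPKM + 1) gave 3. Leaving out a library, which also removes the salt term and assumes that the lone library varies like the others, gave 0 to 774. It was 682 without A50CK, 774 without A200CK, 0 without B50CK and 316 without B200CK. Without a filter, the test with 8 libraries gave 3320 genes, the dose effect under cadmium 255 and the interaction 1217, and DESeq2 gave 1090, 39 and 158, each against 0. The causes were not tested. Counts of genes 2-fold apart in both salts kept to within 1.5 times under other pseudocounts and TMM. With a mean of at least 1 CPM there were 1496 higher and 1246 lower, at 4-fold 16 and 71, under the treatment text 197 and 185, in the FeCl3 pair alone 2268 and 1999, and in the sulfate pair alone 2125 and 3369. Genes without overlap numbered 12175 higher and 8696 lower with a mean of at least 1 CPM, and 2386 lower under the treatment text. Of the genes moved the same way by cadmium without iron, 84 higher and 253 lower held with the cadmium ratio at 4-fold and the dose ratios kept at 2-fold. There were 574 and 667 with a mean of at least 1 CPM. Several of these alternatives were chosen after seeing the data. The FPKM carry no depth of their own, and 1 library per treatment limits every result.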
